A study of Mus musculus with 24 samples.

Results

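Inhibitors and activators of proteolysis were followed through 9 genes of the TIMP and plasminogen systems: Timp1, Timp2, Timp3, Serpine2, Serpinb2, Plat, Plau, Plaur and Pdpn. They were taken by name from the 55291 genes in the count files, whatever their level, and all 9 passed the filter on low counts. Pulmonary fibroblasts of C57BL/6 mice, wild type (WT) or TLR4-/- on the same background, were sequenced in 24 libraries. The mice were 4 to 8 weeks old, and the cells of each group came from 3 to 4 pooled lungs, so no library stands for a single animal. Cells at passages 3 to 6 were kept overnight in reduced serum medium (Opti-MEM) and then received, for 24 h, PBS, recombinant mouse cold-inducible RNA-binding protein (rmCIRP, 1 μg/ml), recombinant mouse transforming growth factor β1 (rmTGF-β1, 2 ng/ml) or both. Each of the 8 conditions had 3 libraries. Neither the labels nor the methods say whether these were separate cultures, so the p-values measure the spread between libraries, which may be technical.

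Plasmin, made from plasminogen by the urokinase-type activator (Plau) and the tissue-type activator (Plat), cuts fibrin and matrix proteins and activates other proteases. Urokinase is held at the cell surface by its receptor (Plaur), and serpins, among them plasminogen activator inhibitor 2 (Serpinb2) and protease nexin 1 (Serpine2), inactivate the activators. Tissue inhibitors of metalloproteinases (Timp1, Timp2 and Timp3) block the matrix metalloproteinases, and Timp3 stays bound to the matrix. Podoplanin (Pdpn) is a membrane glycoprotein of lymphatic endothelium, alveolar epithelium and activated fibroblasts. In fibrotic lung these systems are known for their part in clearing or keeping fibrin and matrix.

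The promoter windows below are shown because Serpinb2 had the largest response to rmCIRP of the 9 genes and Pdpn the pattern closest to it, while Plaur did not pass the test with rmCIRP and is the only member whose window held the AP-1 letters. RefSeq windows of the GRCm38.p6 build (250 bases before to 50 after the start site) were matched by symbol for 7 of the 9 members. Plat and Plau were not among them. Serpinb2 has 2 windows there, and the first is shown. Capitals mark TATAAA in Serpinb2 and the reverse complement of TGAGTCA in Plaur. The windows lie at chr1:107511173-107511472 (+ strand) for Serpinb2, chr4:143299515-143299814 (- strand) for Pdpn and chr7:24462233-24462532 (+ strand) for Plaur.
Serpinb2: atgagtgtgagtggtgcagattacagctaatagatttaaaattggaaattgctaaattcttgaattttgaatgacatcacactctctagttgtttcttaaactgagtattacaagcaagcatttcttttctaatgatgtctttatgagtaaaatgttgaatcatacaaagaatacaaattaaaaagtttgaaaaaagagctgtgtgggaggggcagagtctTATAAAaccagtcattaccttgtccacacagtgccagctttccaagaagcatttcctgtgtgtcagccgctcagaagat
Pdpn: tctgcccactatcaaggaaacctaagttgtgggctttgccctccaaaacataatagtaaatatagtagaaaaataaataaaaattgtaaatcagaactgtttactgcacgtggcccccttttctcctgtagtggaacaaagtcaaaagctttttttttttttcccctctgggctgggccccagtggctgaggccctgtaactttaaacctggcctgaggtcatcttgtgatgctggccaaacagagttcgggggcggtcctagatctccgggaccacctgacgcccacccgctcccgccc
Plaur: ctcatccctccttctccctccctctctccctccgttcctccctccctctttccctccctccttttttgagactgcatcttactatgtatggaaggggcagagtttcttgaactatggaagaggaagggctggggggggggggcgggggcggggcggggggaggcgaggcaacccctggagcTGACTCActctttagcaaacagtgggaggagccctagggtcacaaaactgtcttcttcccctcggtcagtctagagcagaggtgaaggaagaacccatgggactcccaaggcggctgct

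TATAAA began 29 bases before the start site of the Serpinb2 window shown and 116 before that of its second window. It was found, on either strand, in 13.6% of 32851 RefSeq promoter windows, which do not cover every chromosome. The AP-1 letters TGAGTCA lay 69 bases before the start of Plaur and were found in 5.2% of the windows. CRE (TGACGTCA), CAGACA, which SMAD proteins bind, and the NF-kappaB consensus were in 1.79%, 21% and 8.46% of windows and in none of the members' windows. The windows differed in composition, from 35.3% GC for Serpinb2 to 77.7% for Serpine2. A match describes letters only, and a missing match says nothing about the factor outside this window.

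Each library held between 29853346 and 39664606 reads on genes. The lowest count of any member in any library was 605. Of the 10 fibroblast markers, all passed the filter, with a summed level of 595530 to 822231 normalized counts (counts divided by DESeq2's size factor). The macrophage markers summed to 76535 to 95761 in WT libraries and to 313085 to 397469 in those labelled TLR4-/-, and 15 of 15 passed the test as higher with PBS. All macrophage sums given here are mostly Lyz2, at 50775 to 323753 counts, while the next highest gene, Csf1r, reached at most 14928. Of the 8 alveolar epithelial markers, 3 never reached 10 counts and the list summed to 48.7 to 157. Tlr4 mRNA was 759 ± 41.9 normalized counts (SD, n = 3) in WT and 903 ± 20.2 in TLR4-/- libraries with PBS, so the counts do not check the genotype, and "TLR4-/-" stands for the label. Xist was at 3 or fewer normalized counts in the 12 WT libraries and at 4328 to 6096 in the 12 labelled TLR4-/-. The genotypes, the macrophage markers and Xist therefore cannot be told apart in these pools. Timp1 lies on the X chromosome, and its differences between genotypes share this limit. The third TLR4-/- library with rmTGF-β1 and the third with both treatments stood apart from their replicates: the chi-square per degree of freedom against each replicate was 11.9 and 15.6, and 45.7 and 31.3, against a median of 4.71 over all replicate pairs. Several results that rest on these 2 libraries are also given without them, or with their range when single libraries were left out.

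In WT cells, rmCIRP raised Serpinb2, Plau, Pdpn and Timp1 and lowered Timp3 and Timp2 in comparison with PBS. These were 6 of the 9 members, while 43.9% of the 16258 genes tested passed (edgeR's quasi-likelihood test, adjusted p under 0.1). The members' median log2 fold change was 0.39, against -0.02 over all genes. The members were chosen with earlier results of these data known, so this describes them and is no test. rmTGF-β1 changed 3 members, raising Timp3 and Plaur and lowering Plau, while 12.4% of all genes passed. Of the cell type markers, 5 of 15 macrophage genes were higher and 8 lower with rmCIRP in WT, and 2 of 10 fibroblast genes were higher and 6 lower, with sums of 78048 to 83050 against 88087 to 95761 and of 617899 to 664524 against 727613 to 791125. Their part in the members' changes was not tested. The 2 treatments moved Timp3 and Plau in opposite directions. When rmCIRP was added to rmTGF-β1, 8 members passed, 6 higher and 2 lower, beside 42.2% of all genes. When rmTGF-β1 was added to rmCIRP, Timp3 was higher and Plau lower, and no other member passed, beside 20.5% of all genes. These last comparisons share the libraries with both treatments. In bulk RNA, more of a transcript per cell and more cells that hold it cannot be told apart.

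**Figure D1:**
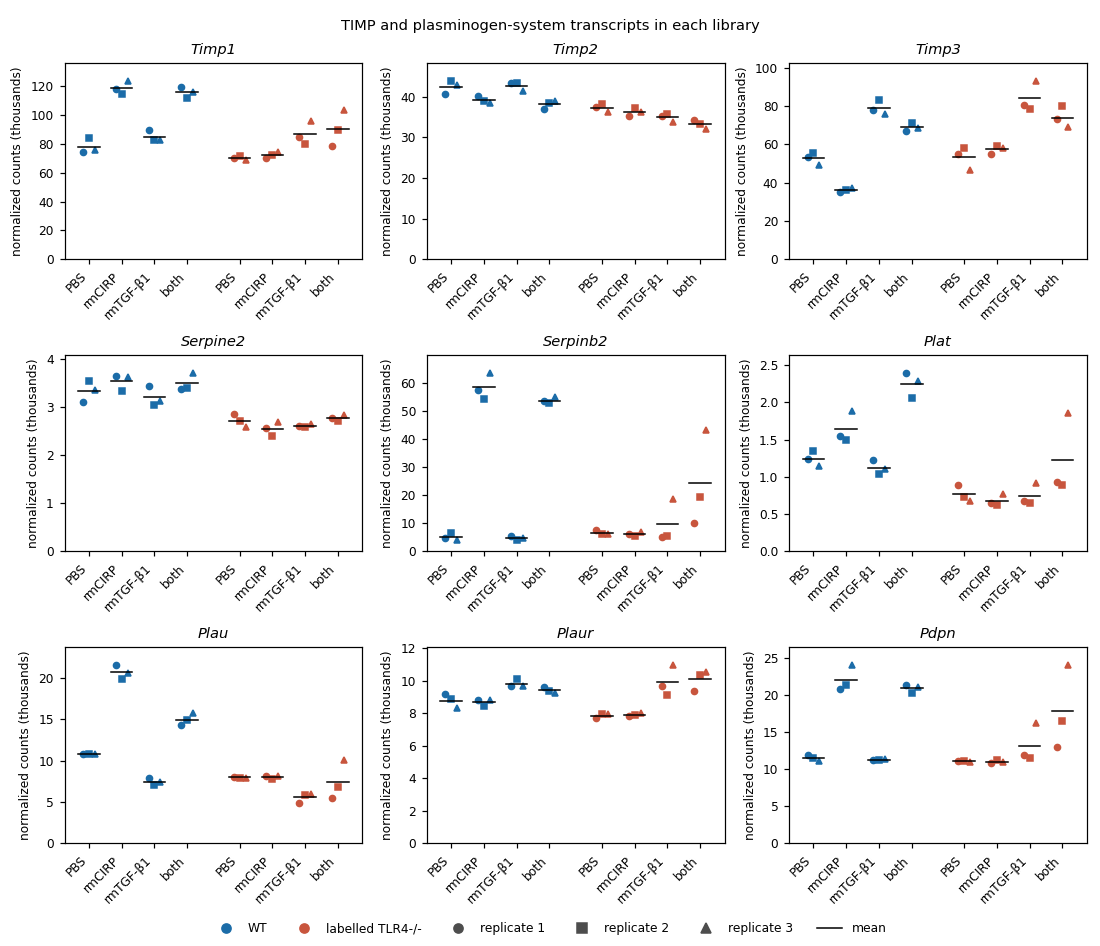
Normalized counts (linear axis from 0, scaled as labelled) of the 9 genes in each of the 24 libraries, by treatment. Blue marks WT and red the libraries labelled TLR4-/-, the symbol gives the replicate number and the bar the mean of 3. Serpinb2, Plau and Pdpn were higher in all WT libraries with rmCIRP than with PBS, and the third TLR4-/- library with both treatments reached 42964 for Serpinb2.

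Serpinb2, a serpin that inhibits urokinase, was at 4747, 6529 and 4087 normalized counts in the 3 WT libraries with PBS. It was at 57365, 54192 and 63452 with rmCIRP. The libraries were far apart, and the fitted change was 3.50 ± 0.44 (log2 fold change ± SE, 11.3-fold), with an adjusted p of 1.25e-06. With rmTGF-β1 alone, Serpinb2 was at 5465, 4054 and 4528, which overlapped PBS (log2 fold change -0.13 ± 0.40, adjusted p = 0.899). With both treatments it was at 53306, 52709 and 54752, higher than with rmTGF-β1 by 3.51 ± 0.44 (adjusted p = 1.4e-06). Set against rmCIRP alone, the value was -0.13, with a 95% interval of -0.89 to 0.64. This interval rests on a spread shared by all 8 conditions, among them the widely spread TLR4-/- libraries with rmTGF-β1. In the alternative fits that kept every library compared, the adjusted p ran from 0.0606 to 0.921 (edgeR or DESeq2), the lowest under the 0.1 threshold. Libraries labelled TLR4-/- had Serpinb2 at 7388, 6294 and 6014 with PBS and at 6014, 5362 and 6928 with rmCIRP. These overlapped, and the log2 fold change was -0.10 ± 0.40 (adjusted p = 0.99). Serpinb2 shares 291 exon bases with Serpinb10 on the same strand in the GENCODE release M21 annotation, so some of its reads may have been left uncounted as ambiguous.

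Serpine2, a serpin that inhibits thrombin, urokinase and tissue-type activator, moved little. It was at 3114 to 3538 normalized counts in WT libraries with PBS and 3334 to 3650 with rmCIRP, which overlapped (log2 fold change 0.08 ± 0.05, adjusted p = 0.262). It passed without the second library with PBS (0.13, adjusted p = 0.0784) or the second with rmCIRP (0.13, adjusted p = 0.0865). The value with rmCIRP added to rmTGF-β1 was 0.12 ± 0.05 (adjusted p = 0.0856), but the libraries overlapped and the adjusted p was 0.322, 0.226 or 0.365 without the second or the third library with rmTGF-β1 or the third with both. Its clearest difference was between genotypes: with PBS it was at 2857, 2719 and 2585 in TLR4-/- libraries, 0.30 ± 0.05 lower on the log2 scale than in WT (adjusted p = 0.000132).

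Plau, which encodes urokinase, was at 10820, 10794 and 10794 normalized counts in WT libraries with PBS. With rmCIRP it was at 21614, 19916 and 20596, a log2 fold change of 0.93 ± 0.12 (adjusted p = 2.78e-06). With rmTGF-β1 it was at 7931, 7084 and 7390, below every PBS library, and fell by 0.54 ± 0.12 (adjusted p = 0.0077). With both treatments it was at 14277, 14937 and 15716, between rmCIRP alone and PBS. It was then 1.00 ± 0.12 higher than with rmTGF-β1 (adjusted p = 1.32e-06) and 0.47 ± 0.12 lower than with rmCIRP (adjusted p = 0.00962). The TLR4-/- libraries had Plau at 8073, 7911 and 7919 with PBS and at 8165, 7827 and 8098 with rmCIRP, which overlapped. rmTGF-β1 lowered it there too, to 4888, 5819 and 5926 (log2 fold change -0.52 ± 0.12, adjusted p = 0.0052).

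Plat, which encodes tissue-type activator, was at 1237, 1352 and 1149 normalized counts in WT libraries with PBS and at 1549, 1492 and 1882 with rmCIRP. The libraries did not overlap, but the change of 0.39 ± 0.19 gave an adjusted p of 0.107. Fitted on the 12 WT libraries alone, it was 0.41 with an adjusted p of 0.000594, and without the 2 libraries set apart, 0.39 with an adjusted p of 0.00103. It also passed without the second library with rmCIRP (0.47, adjusted p = 0.0968). With both treatments Plat was at 2397, 2062 and 2292, above every library of the other 7 conditions. It was 1.00 ± 0.19 higher than with rmTGF-β1 alone (1232, 1032 and 1109; adjusted p = 0.000222). Against rmCIRP alone the value was 0.45 ± 0.18 (adjusted p = 0.104), and it passed with the 12 WT libraries alone (adjusted p = 0.000356) without the 2 libraries set apart (adjusted p = 0.000407) and without the third library with rmCIRP (0.57, adjusted p = 0.0874).

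Timp1, a secreted inhibitor of most matrix metalloproteinases, was at 74005, 84093 and 75506 normalized counts in WT libraries with PBS and at 117869, 114298 and 123475 with rmCIRP. It rose by 0.60 ± 0.07 (1.52-fold, adjusted p = 1.19e-06). With rmTGF-β1 it was at 89398, 82591 and 82689, and the change of 0.12 ± 0.07 did not pass (adjusted p = 0.373), although it did with the 12 WT libraries alone (0.14, adjusted p = 0.0497). With both it was at 119333, 111566 and 115884, overlapping rmCIRP alone, with a difference of -0.04 and a 95% interval of -0.19 to 0.11. Timp1 in TLR4-/- libraries was at 69769, 71304 and 68655 with PBS and at 69771, 71947 and 74098 with rmCIRP (log2 fold change 0.05 ± 0.07, adjusted p = 0.965). There rmTGF-β1 raised it to 84919, 79676 and 95380, by 0.32 ± 0.07 (adjusted p = 0.00452), and by 0.24 without the third of these libraries (adjusted p = 0.0437).

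Timp3, the matrix-bound inhibitor, went the other way with rmCIRP. In WT libraries it was at 53272, 55262 and 49185 normalized counts with PBS and at 35054, 36281 and 37225 with rmCIRP, a fall by 0.54 ± 0.07 (adjusted p = 2.91e-06). rmTGF-β1 raised it to 78059, 83146 and 75594, by 0.58 ± 0.07 (adjusted p = 1.75e-05). With both treatments it was at 67041, 71274 and 68709, above PBS and below every library with rmTGF-β1 alone. This lay 0.93 ± 0.07 above rmCIRP (adjusted p = 1.2e-08) and 0.20 ± 0.07 below rmTGF-β1 (adjusted p = 0.0343). The latter call was lost without the second library with rmTGF-β1 (adjusted p = 0.13) or the first with both (adjusted p = 0.12). Timp3 in TLR4-/- libraries was at 54832, 58210 and 46744 with PBS and at 54909, 59303 and 57895 with rmCIRP (log2 fold change 0.11 ± 0.07, adjusted p = 0.814). rmTGF-β1 raised it to 80605, 78319 and 93016, by 0.66 ± 0.07 (adjusted p = 1.25e-06). Timp3 shares 1733 exon bases with Syn3 on the opposite strand. The strand option of the counting is not given in the sources used here, so its reads and those of Syn3 may not be fully separated.

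Timp2, which also helps to activate pro-MMP2 at the cell surface, was at 40712 to 43930 normalized counts with PBS and at 38394 to 40154 with rmCIRP in WT libraries. The fall was small, 0.12 ± 0.04, but the libraries did not overlap (adjusted p = 0.011). It was 0.17 ± 0.04 lower with both treatments than with rmTGF-β1 (adjusted p = 0.00116). With PBS it was at 36356 to 38205 in TLR4-/- libraries, 0.19 ± 0.04 lower than in WT (adjusted p = 0.000282). Over the 8 conditions its means stayed between 33318 and 42764.

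Plaur, the urokinase receptor, was at 9162, 8854 and 8326 normalized counts in WT libraries with PBS and at 8799, 8443 and 8819 with rmCIRP. These overlapped, and the 95% interval of the log2 fold change was -0.12 to 0.08. With rmTGF-β1 it was at 9704, 10089 and 9668, a rise by 0.16 ± 0.05 (adjusted p = 0.0649). That call was lost without the second or the third library with PBS (adjusted p of 0.109 and 0.288) or the first, the second or the third with rmTGF-β1 (0.116, 0.244 and 0.124). With both treatments it was at 9650, 9359 and 9260, above every library with rmCIRP alone. The difference of 0.11 ± 0.05 did not pass (adjusted p = 0.16), and it passed with the 12 WT libraries alone (adjusted p = 0.0219) and without the 2 libraries set apart (adjusted p = 0.0333). Plaur in TLR4-/- libraries was at 7697 to 7951 with PBS and 9110 to 10992 with rmTGF-β1, a rise by 0.34 ± 0.05 (adjusted p = 6.89e-05). The receptor and its ligand Plau moved in opposite directions with rmTGF-β1, and with rmCIRP in WT cells Plau passed and Plaur did not.

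Pdpn, the membrane glycoprotein, was at 11961, 11553 and 11114 normalized counts in WT libraries with PBS and at 20787, 21316 and 24100 with rmCIRP. It rose by 0.93 ± 0.14 (adjusted p = 1.54e-05). With both treatments it was at 21386, 20314 and 21070, 0.89 ± 0.14 higher than with rmTGF-β1 alone, where it was at 11230, 11241 and 11356 (adjusted p = 3e-05). Pdpn in TLR4-/- libraries was at 11045, 11079 and 11007 with PBS and 10848, 11179 and 10923 with rmCIRP, which overlapped. Of the 3 lymphatic endothelial markers, 1 passed as higher with rmCIRP in WT. Prox1 had 26 to 58 counts in any library, Lyve1 5 to 24 and Flt4 748 to 1072. In WT the list, mostly Flt4, summed to 913 to 1073 normalized counts with PBS and 1003 to 1128 with rmCIRP. Their part in the value of Pdpn was not tested.

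Whether the response to rmCIRP changed under rmTGF-β1 was tested as an interaction in WT cells. None of the 9 members passed in edgeR's test or in DESeq2, while 0.0492% of all genes passed in edgeR, and 2 members had an unadjusted p under 0.05. These were Timp3, with 0.35 ± 0.10 (adjusted p = 0.455), and Plat, with 0.61 ± 0.26 (adjusted p = 0.824). Both passed when the model was fitted on the 12 WT libraries alone (Timp3 0.33, adjusted p = 0.0153; Plat 0.59, adjusted p = 0.0232) or without the 2 libraries set apart (adjusted p of 0.0677 and 0.0394). Timp1 had -0.16 ± 0.10 and did not pass in either fit.

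**Figure D2:**
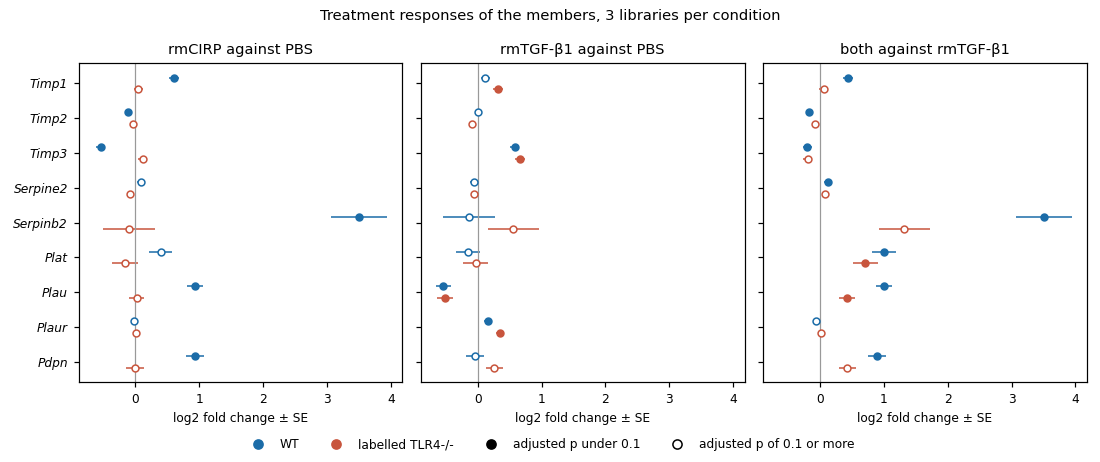
Log2 fold changes with their standard errors for 3 comparisons in WT (blue) and in libraries labelled TLR4-/- (red), 3 libraries per condition. Filled points have an adjusted p under 0.1. In WT, rmCIRP moved Serpinb2 by 3.50 and Timp3 by -0.54, and in TLR4-/- libraries no member passed with rmCIRP. Timp3 and Plau moved the same way with rmTGF-β1 in both.

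In the libraries labelled TLR4-/-, rmCIRP changed none of the 9 members. The log2 fold changes lay between -0.17 for Plat and 0.11 for Timp3, and none had an unadjusted p under 0.05. The share of all genes that passed was 0%: edgeR called 0 genes, with 1136 at an unadjusted p under 0.05, and DESeq2 called 33 genes and no member. A direct test of whether rmCIRP acted differently by genotype passed for 5 members, beside 31.4% of all genes. It was -3.61 ± 0.58 for Serpinb2 (TLR4-/- minus WT, adjusted p = 7.51e-05) and 0.66 ± 0.10 for Timp3 (adjusted p = 4.65e-05). For Pdpn, Plau and Timp1 it was -0.93 ± 0.20, -0.92 ± 0.17 and -0.55 ± 0.10 (adjusted p of 0.00125, 0.00045 and 0.000458). For Plat it was -0.56 ± 0.28 (adjusted p = 0.15). It passed without the 2 libraries set apart (adjusted p = 0.00274), which lie outside the conditions compared. For Serpine2 it was -0.17 ± 0.08 (adjusted p = 0.126), and it passed without the second WT library with PBS (adjusted p = 0.0399), the second with rmCIRP (adjusted p = 0.044), or the third TLR4-/- library with PBS (adjusted p = 0.0479) or with rmCIRP (adjusted p = 0.0836).

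With PBS alone, 6 members were lower in TLR4-/- than in WT libraries and none was higher, beside 47.1% of all genes. Plat had the largest difference, at 887, 733 and 678 normalized counts against 1237, 1352 and 1149 in WT (log2 fold change -0.70 ± 0.20, adjusted p = 0.00615). Plau followed with -0.44 ± 0.12 (adjusted p = 0.00599), then Serpine2 and Timp2 as given above. Plaur was 0.16 ± 0.05 lower (adjusted p = 0.0159), a call lost without the first WT library with PBS (adjusted p = 0.155). Timp1 was 0.16 ± 0.07 lower (adjusted p = 0.094), lost without the first (adjusted p = 0.114) or second (0.456) WT library or the first (0.187), the second (0.108) or the third (0.269) TLR4-/- library with PBS. Serpinb2 overlapped between genotypes (log2 fold change 0.36 ± 0.40, adjusted p = 0.52). Pdpn differed by -0.07, with a 95% interval of -0.34 to 0.20. The macrophage markers were higher in the same TLR4-/- libraries, with a median log2 fold change of 2.20 over the 15 genes, and their part in these differences was not tested.

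rmTGF-β1 raised Timp1, Timp3 and Plaur and lowered Plau in the TLR4-/- libraries, 4 members beside 23.9% of all genes. The difference between genotypes in this response passed for none of the 9 members in edgeR or DESeq2, beside 0.0861% of all genes. Plaur, named here after its values were seen, was the 1 member with an unadjusted p under 0.05 (0.19 ± 0.07, adjusted p = 0.355). Its values lay between -0.09 for Timp2 and 0.69 for Serpinb2. The third TLR4-/- library with rmTGF-β1 was high in Serpinb2, at 18563 normalized counts beside 5047 and 5239. Serpinb2 therefore had a log2 fold change of 0.56 ± 0.40 against PBS (adjusted p = 0.376), and -0.35 without that library (adjusted p = 0.581). The genotype difference for Serpinb2 was likewise -0.21 without it. Pdpn was at 16191 in the same library and at 11911 and 11442 in the others.

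With both treatments the TLR4-/- libraries spread further. Serpinb2 was at 10093, 19464 and 42964 normalized counts, all above the PBS range, and the third reached 6.54-fold the PBS mean. Plat was at 931, 895 and 1852, Plau at 5497, 6806 and 10059, and Pdpn at 12934, 16537 and 24066, highest in the third library each time. Timp1 was highest in it too, at 78285, 89665 and 103499. Timp3 did not, at 72950, 79808 and 68943. In the third library Tnf was at 538 and Il1b at 73.1 normalized counts, while WT libraries with rmCIRP held 7474 to 8696 and 15495 to 16810, so both cytokines were far below that level in it. Other genes that rmCIRP raised in WT were higher there than in both replicates: Procr was at 7720 normalized counts, against 2331 and 2769 in its replicates and 5086 to 6269 in WT with rmCIRP, and Mmp13 at 18473, against 6201 and 10581, and 40177 to 45498 in WT with rmCIRP. Mmp10 was at 16813, against 4801 and 8647, and Mmp3 at 8560, against 3317 and 3836, while both were at 27580 or more in WT with rmCIRP. Its blood endothelial markers summed to 717 normalized counts, against 288 and 379 in its replicates, its macrophage markers to 397469, against 320967 and 351418, and its fibroblast markers to 595530, against 696701 and 738230. Their part in the spread was not tested.

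**Figure D3:**
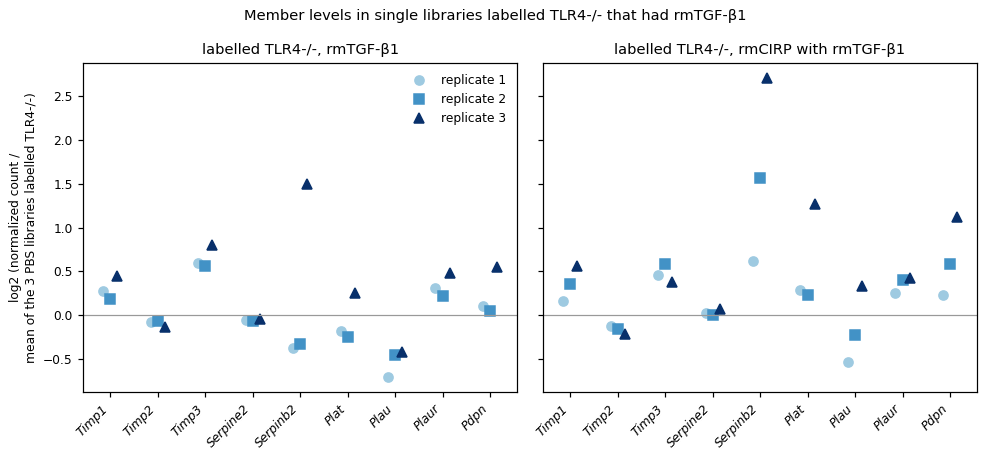
Log2 ratio of each library's normalized count to the mean of the 3 TLR4-/- libraries with PBS, for the 9 genes, in the 6 TLR4-/- libraries that had rmTGF-β1 alone (left) or with rmCIRP (right). Each point is 1 library. The third libraries (dark triangles) lie highest for Serpinb2, at 1.5 and 2.71, and for Plat, at 0.25 and 1.27.

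Adding rmCIRP to rmTGF-β1 in TLR4-/- libraries gave higher Plat and Plau by the test, beside 2.69% of all genes. The log2 fold changes were 0.71 ± 0.20 for Plat (adjusted p = 0.0897) and 0.42 ± 0.12 for Plau (adjusted p = 0.0985), and the libraries overlapped in both. Neither passed without the first library with rmTGF-β1 (adjusted p of 0.404 and 0.419), the second (0.272 and 0.213) or the third with both (0.571 and 0.618). When only the 12 TLR4-/- libraries were fitted, no member and 0 genes passed. Serpinb2 had 1.32 ± 0.40 (adjusted p = 0.106) and Pdpn 0.43 ± 0.14 (adjusted p = 0.122), and both passed in DESeq2 (adjusted p of 0.0744 and 0.0892). Serpinb2 passed without the third library with rmTGF-β1 (2.23, adjusted p = 0.009), the first with both (1.69, adjusted p = 0.00822) or the second with both (1.46, adjusted p = 0.0883). Pdpn passed without the third library with rmTGF-β1 (0.61, adjusted p = 0.0177) or the first with both (0.62, adjusted p = 0.00444). Timp3, at -0.19 ± 0.07 (adjusted p = 0.173), passed without the second with both (-0.25, adjusted p = 0.0928). Without both libraries set apart, Serpinb2 had 1.52 (adjusted p = 0.00216), Plat 0.46 (adjusted p = 0.0511), Pdpn 0.33 (adjusted p = 0.0181) and Plau 0.20 (adjusted p = 0.189), with 2 libraries left in each condition.

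Against rmCIRP alone, 7 members passed with both treatments in TLR4-/- libraries, beside 32.8% of all genes. Serpinb2 was higher by 1.98 ± 0.41 (adjusted p = 0.00132), and by 1.28 without the third library with both (adjusted p = 0.0134). Plat was higher by 0.84 ± 0.20 (adjusted p = 0.00345), and by 0.42 without that library (adjusted p = 0.0305). Pdpn was higher by 0.69 ± 0.14 (adjusted p = 0.000994), and by 0.42 without it (adjusted p = 0.00486). Timp1, Timp3 and Plaur were higher by 0.33 ± 0.07, 0.36 ± 0.07 and 0.35 ± 0.05 (adjusted p of 0.00277, 0.00095 and 7.09e-05). Timp1 was higher by 0.22 without the third library with both (adjusted p = 0.0213). Timp3 ranged from 0.30 to 0.41 and Plaur from 0.32 to 0.40 when single libraries were left out, and each passed every time. Timp2 was 0.13 ± 0.04 lower (adjusted p = 0.0147), which was lost without the second library with rmCIRP (adjusted p = 0.108).

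Each serpin was set against an activator in each library as a difference of log2 normalized counts, a description with no test. These are values of gene pairs, and no total of inhibitors against activators is given, since not every inhibitor of the activators enters them. The 2 pairs moved in opposite directions with rmCIRP. Serpinb2 minus Plau was -1.40 to -0.73 in WT libraries with PBS and 1.41 to 1.62 with rmCIRP. It was -0.81 to -0.54 with rmTGF-β1 and 1.80 to 1.90 with both. Serpine2 minus Plat went from 1.33 to 1.54 with PBS down to 0.95 to 1.24 with rmCIRP. Its range was 1.48 to 1.56 under rmTGF-β1 alone, and adding rmCIRP to that gave 0.50 to 0.72. Neither pair's ranges with rmCIRP overlapped those without it in WT. For TLR4-/- libraries, Serpinb2 minus Plau was -0.40 to -0.13 with PBS and -0.55 to -0.23 with rmCIRP, which overlapped. Under rmTGF-β1 it was 0.05, -0.15 and 1.65, and under both 0.88, 1.52 and 2.09, highest in the third library each time.

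**Figure D4:**
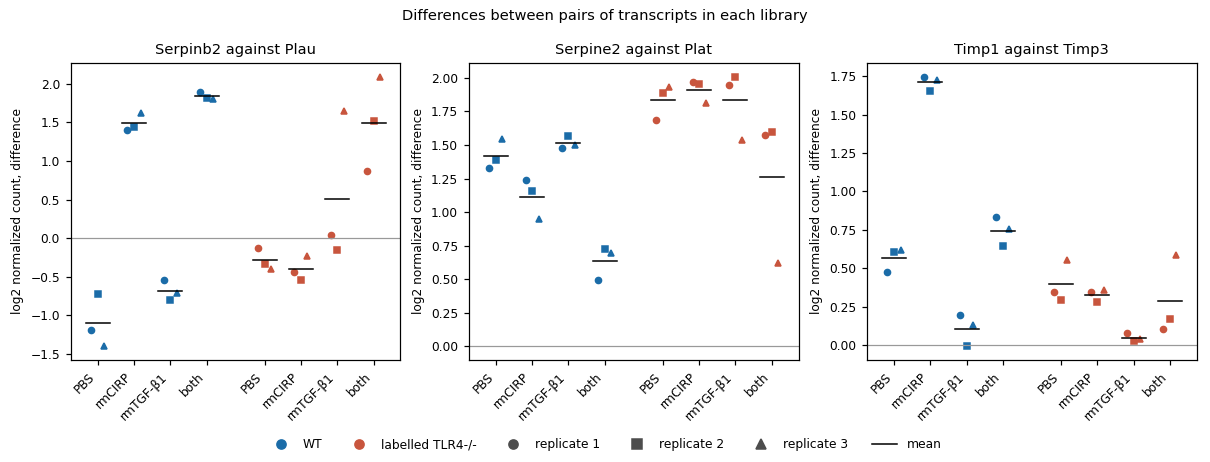
Differences of log2 normalized counts in each library between Serpinb2 and Plau (left), Serpine2 and Plat (middle) and Timp1 and Timp3 (right). Blue is WT, red the libraries labelled TLR4-/-, the symbol gives the replicate number and the bar is the mean of 3. With rmCIRP in WT the left value was higher than with PBS, at 1.41 to 1.62, and the middle one lower, at 0.95 to 1.24.

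Among the metalloproteinase inhibitors, the difference of log2 normalized counts between Timp1 and Timp3 was 0.47 to 0.62 in WT libraries with PBS. It was 1.66 to 1.75 with rmCIRP, -0.01 to 0.20 with rmTGF-β1 and 0.65 to 0.83 with both. In TLR4-/- libraries it was 0.29 to 0.55 with PBS and 0.28 to 0.36 with rmCIRP. Per length, Timp1 was the most abundant member in WT libraries with PBS, at 2635 ± 170 RPKM (reads per kb of exon, scaled to the reads of the library, SD, n = 3), followed by Timp2 at 328 ± 11.7, Timp3 at 194 ± 10.6 and Pdpn at 191 ± 6.90, the last 2 within their spread. Plau was at 137 ± 0.82, Plaur at 101 ± 4.73 and Serpinb2 at 65.5 ± 15.8. Serpine2 at 12.1 ± 0.72 and Plat at 6.00 ± 0.46 were the lowest. With rmCIRP in WT, Serpinb2 reached 723 ± 55.4 and passed all but Timp1.

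Ordered by mean normalized count over the 8 conditions, Serpinb2, Timp1 and Pdpn shared the 2 highest places, WT with rmCIRP and WT with both, and those conditions overlapped in each. For Plau the same 2 conditions led without overlap (20709 ± 855 and 14976 ± 720, SD, n = 3), followed by WT with PBS (10803 ± 15.1). For Plat, WT with both led (2250 ± 171) and did not overlap WT with rmCIRP (1641 ± 211). For Timp3 the 4 conditions with rmTGF-β1 led, and WT with rmCIRP was lowest (36186 ± 1089), without overlap with its neighbour. For Serpine2 the 4 WT conditions stood above the 4 TLR4-/- ones with no overlap between them. Plaur was highest in the 4 conditions with rmTGF-β1.

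Across the 8 condition means of log2 normalized counts, which rest on 3 libraries each and cover both genotypes, Serpinb2 and Pdpn had a Pearson correlation of 0.986 and Timp1 and Pdpn of 0.941. Timp3 and Plau had -0.739. The means of TLR4-/- with rmTGF-β1 and with both treatments include the libraries set apart. In normalized counts Serpinb2 was at 9616 ± 7748 and 24174 ± 16934 there (SD, n = 3). No correlation was computed without these libraries. The most alike genes below are the highest of many values over 8 conditions, so they describe likeness and are no test. Among 12310 other genes, the most alike were Cflar (0.994) and Slc36a1 (0.99) for Serpinb2, Slc25a37 (0.993) and Mbtd1 (0.993) for Pdpn, and Vegfc (0.993) and Cacybp (0.991) for Timp1. For Plau, Cd47 (0.99) was among them. They were for Plat Ntrk2 (0.995) and Kdm5a (0.992), and for Timp2 Tbx2 (0.995) and Pcolce (0.992). For Serpine2 they were Foxl1 (0.995) and Mapk13 (0.992), for Timp3 2900026A02Rik (0.982) and Rflnb (0.974), and for Plaur Mark3 (0.968) and Card10 (0.964).

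Of 25 other genes of plasminogen activation and pericellular proteolysis, 21 passed the filter. Plasminogen itself (Plg) had at most 2 counts in any library. With rmCIRP in WT, 4 of the 21 were higher and 7 lower, beside 43.9% of all genes called, with a median log2 fold change of -0.12 against -0.02 over all genes. Procr, the protein C receptor, was 1.46 ± 0.27 higher (adjusted p = 0.000154) and Tfpi2, a Kunitz-type protease inhibitor, 0.89 ± 0.16 higher (adjusted p = 0.000135). St14, a membrane serine protease, was 1.58 ± 0.38 lower but had at most 25 normalized counts in these libraries. With rmTGF-β1, 3 were higher and 1 lower, beside 12.4% of all genes called, and Tfpi2 rose by 1.22 ± 0.16 (adjusted p = 2.86e-05). With rmCIRP in TLR4-/- libraries none passed.

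Of 22 metalloproteinase genes of the MMP, ADAM and ADAMTS families, 21 passed the filter. With rmCIRP in WT, 7 were higher and 13 lower, beside 43.9% of all genes called, with a median log2 fold change of -0.26 against -0.02 over all genes. The 3 largest rises were in Mmp13, Mmp10 and Mmp3, by 3.12 ± 0.24, 2.95 ± 0.29 and 2.38 ± 0.24 (adjusted p of 4.99e-10, 2.94e-08 and 5.46e-08), a collagenase and the stromelysins, beside the 0.60 of Timp1 and the -0.54 of Timp3. Adam8 and Adamts1 fell by 1.69 ± 0.08 and 1.26 ± 0.09 (adjusted p of 1.85e-13 and 1.72e-10). With rmTGF-β1 in WT, 1 was higher and 5 lower, beside 12.4%. Of 7 partners of podoplanin, 4 were higher with rmCIRP in WT and none lower, beside 43.9% of all genes called. They were Lgals8, a galectin, by 0.80 (adjusted p = 1.45e-10), Cd44, which binds podoplanin and hyaluronan, by 0.63 (adjusted p = 1.94e-05), Ezr, which links it to actin, by 0.36 (adjusted p = 0.00512), and Msn, of the same family as Ezr, by 0.10 (adjusted p = 0.0157).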

How the data were processed

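Per the study's methods, stranded total RNA libraries (TruSeq, RNA integrity number at least 8) were sequenced on a NextSeq 550, aligned with STAR2 to the mouse GENCODE genome and counted per gene with HTSeq. The submitters' processing notes name the build NCBIM37. Versions, the annotation release and the strand option are not given in the sources used here. The authors deposited raw counts, 1 file per library. The 5 tally lines of HTSeq (14.5% to 16.1% of each file's total) were left out.

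The members and lists were chosen with earlier results of these data known. All 9 members were named in every condition. Of the context lists, genes were named that were called with rmCIRP or rmTGF-β1 in WT and moved by 1 or more on the log2 scale, up to 5 per list. The mean over 4 serpin and activator genes that had been planned is not reported. The podoplanin partners were named after their values were seen. Some genes of the lists are not reported here. A gene was tested if it passed filterByExpr by condition (16258 genes). edgeR 4.0.16 (R 4.3.3) fitted 8 condition means to all 24 libraries after TMM normalization, with the quasi-likelihood test. P-values were adjusted by Benjamini-Hochberg over every tested gene, and a call is an adjusted p under 0.1. Intervals are 95%. Levels are counts divided by DESeq2 1.42.0 size factors, and levels between genes are RPKM computed with GENCODE release M21 exon lengths. The most alike genes had a mean of at least 50 normalized counts. Counts of 605 or more for every member leave counting error small against the spread between libraries, and intervals cover that spread. The spread of each gene was estimated over all 8 conditions, so widely spread TLR4-/- libraries also widen the intervals of WT comparisons.

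The alternatives were RLE normalization, DESeq2, no filter, a mean count of at least 10, only the libraries compared, a replicate block and leaving out each library. Fits without the 2 libraries set apart and within 1 genotype were added after the data were seen. The test was checked on simulated counts with 200 changed genes. The simulation gave every gene the same spread and had no outlying library, so it cannot bear on libraries that stand apart.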

Additional observations from a re-analysis of the deposited data

Results flagged for a closer look

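The response to rmCIRP differed between the genotypes for 5 of the 9 genes, by a test of the difference itself (TLR4-/- minus WT, log2 fold change, edgeR). The difference was -3.61 ± 0.58 (SE) for Serpinb2, 0.66 ± 0.10 for Timp3, -0.93 ± 0.20 for Pdpn, -0.92 ± 0.17 for Plau and -0.55 ± 0.10 for Timp1, with 3 libraries in each of the 4 conditions. All 5 also passed in DESeq2. They passed without the 2 libraries set apart too, but those are in none of the 4 conditions. Leaving them out changes mainly the shared spread estimate, so it is no check of these values. The genotypes came from separate pools that differed in macrophage markers and Xist, which cannot be told apart from the Tlr4 genotype here. Groups of 3 libraries were not tested for single outlying values.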

How the results depend on the processing

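The 79 member values were recomputed under the alternatives, which gave 1171 values: 1061 kept their direction and side of the threshold, 31 fell short of it, 72 passed it newly and 7 changed sign, none of the 7 a called value. Those 7 were in 4 values. When single libraries were left out, Plaur with rmCIRP in WT ranged from -0.0593 to 0.0258 (without the first PBS library; 0.0086 without the second rmCIRP library). Serpinb2 with rmTGF-β1 in WT ranged from -0.2744 to 0.0901 (without the second PBS library). Serpinb2 with rmTGF-β1 in TLR4-/- libraries ranged from -0.3457 (without the third such library) to 0.8646, and its genotype difference from -0.2082 to 0.9920. Without both libraries set apart these last 2 were -0.3460 and -0.2112. The cause was not tested in any of these.

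In WT, genes called with rmTGF-β1 (2019) were 3357 within 1 genotype, 3216 without the libraries set apart and 1029 to 1690 when single libraries were left out. Members called with both against rmCIRP (2) were 5 with no filter or with only the libraries compared and 4 within 1 genotype or without the libraries set apart. For the interaction in WT (8 genes), DESeq2 called 37 genes, no filter 198, the WT libraries alone 125 and the fit without the libraries set apart 92. All but DESeq2 called 2 members, and leaving out single libraries gave 2 to 7 genes and no member.

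In TLR4-/- libraries, genes called with rmCIRP (0) were 33 in DESeq2, 149 with no filter, 29 with only the libraries compared, 16 without the libraries set apart and 0 to 9 when single libraries were left out. With rmTGF-β1 they were 2517 to 3783 when single libraries were left out (3884 with all). For both against rmTGF-β1 (437 genes, 2 members), DESeq2 gave 902 and 4, no filter 1580 and 5, only the libraries compared and 1 genotype 0 and 0, and leaving out single libraries 0 to 2674 and 0 to 4. For both against rmCIRP (5329), only the libraries compared gave 2710. For the genotype difference with rmTGF-β1 (14 genes, 0 members), DESeq2 gave 163, no filter 563 and 2 members, a mean count of at least 10 gave 23, the fit without the libraries set apart 190 and leaving out single libraries 0 to 119. The causes were not tested.

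Nothing in the labels ties libraries of the same number, and, since not every pair's correlation was over 0.1, they were not taken as pairs. Deviations of same-numbered libraries had a mean correlation of 0.01 over 84 pairs, and 13 of 24 libraries correlated best with one of their own number. For both against rmTGF-β1 in TLR4-/- libraries the mean was 0.19 (0.0586 to 0.35 over 3 pairs). With the replicate number as a block, that comparison gave 810 genes and 4 members, with Serpinb2 (1.34, adjusted p = 0.0702) and Pdpn (0.42, adjusted p = 0.08) beside Plat and Plau. In WT, Plat passed with rmCIRP (0.38, adjusted p = 0.0841) and with both against rmCIRP (0.46, adjusted p = 0.0633), and Timp2 passed with rmTGF-β1 in TLR4-/- libraries (adjusted p = 0.0953). The block gave 1 gene for rmCIRP in TLR4-/- libraries and 22 for the genotype difference with rmTGF-β1.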
